A study of Mus musculus with 36 samples.

Results

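The genes described here are 4 mitogen-activated protein (MAP) kinases, Mapk3, Mapk8, Mapk9 and Mapk14, 2 cyclin-dependent kinases, Cdk5 and Cdk7, and 3 dual-specificity phosphatases, Dusp1, Dusp4 and Dusp6. They were taken by name, because a kinase that prefers a serine followed by a proline could act on such a site in the retinoid X receptor RXRα, and they make up 9 of the 55536 genes in the count tables. RNA was sequenced from brown pre-adipocytes on day 0, at confluence, and on days 2 and 6 of differentiation into adipocytes. Every library came from an Rxra-/- background: Rxra had been knocked out with CRISPR/Cas9 in a clonal mouse brown pre-adipocyte line, and 2 knockout clones, 48 and 66, were each given back by retrovirus either wild-type RXRα (WT) or RXRα with serine 22 changed to alanine (S22A, here SA). Each clone, genotype and day had 3 libraries, so that there were 6 libraries for each genotype and day and 36 in all. Cells were grown with insulin and triiodothyronine, and dexamethasone, isobutylmethylxanthine and indomethacin were present between days 0 and 2 only. Each clone grew from a single cell and was sequenced in a library pool of its own, so clone and pool cannot be told apart. The series text calls the 3 replicates of a clone technical, in which case p-values measure only the spread between such cultures. The study's methods, in contrast, describe its culture experiments as independent replicates, and the labels do not settle which holds.

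MAP kinases are the last step of 3-kinase relays: Mapk3 encodes ERK1, which answers growth factors and insulin, Mapk8 and Mapk9 encode JNK1 and JNK2, and Mapk14 encodes p38α, which both answer stress and cytokines. All of them act once phosphorylated on a threonine and a tyrosine, and the dual-specificity phosphatases remove both phosphates. Dusp1 acts in the nucleus on p38, JNK and ERK, Dusp4 in the nucleus on ERK and JNK, and Dusp6 in the cytoplasm on ERK, and these phosphatase genes are themselves induced by the kinases they switch off. Cdk5 needs the activator p35, encoded by Cdk5r1, whereas Cdk7 works with cyclin H and Mat1 (Ccnh and Mnat1) in transcription and in the cell cycle. ERK signalling, p38 signalling and Cdk5 have each been linked to fat cell formation. Transcript levels say nothing of whether a kinase was phosphorylated, and in bulk RNA fewer cells expressing a gene cannot be told apart from less RNA per cell.

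The region upstream of Dusp1 is shown because Dusp1 was, with Dusp4, one of the genes whose time course differed between the clones, and that of Dusp6 because Dusp6 differed between the clones in level but not in its change at day 2. The 250 bases before each RefSeq start (GRCm38.p6) were read 5′ to 3′ on the gene's strand and searched on both strands for the cyclic AMP response element TGACGTCA, its first 5 bases TGACG, the CCAAT box, the GC box GGGCGG, the TATA box TATAAA and the 6-base core TGTTCT of the glucocorticoid receptor element. Capitals mark the cyclic AMP response element, its first 5 bases and the CCAAT box on either strand, which reads ATTGG when on the other strand.
Dusp1, chr17:26508473-26508722, minus strand: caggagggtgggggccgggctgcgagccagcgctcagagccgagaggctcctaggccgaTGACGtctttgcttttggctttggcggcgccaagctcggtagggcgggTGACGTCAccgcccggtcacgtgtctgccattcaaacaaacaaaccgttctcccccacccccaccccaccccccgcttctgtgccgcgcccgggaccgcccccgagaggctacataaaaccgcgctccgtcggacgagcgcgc
Dusp6, chr10:99262981-99263230, plus strand: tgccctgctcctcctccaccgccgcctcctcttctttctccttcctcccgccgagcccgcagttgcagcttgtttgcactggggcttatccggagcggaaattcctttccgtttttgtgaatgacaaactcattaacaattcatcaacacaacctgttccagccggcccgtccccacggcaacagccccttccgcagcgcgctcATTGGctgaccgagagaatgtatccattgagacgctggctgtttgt
The Dusp1 window held the whole element 143 bases before the start and a further TGACG at 191 bases. The whole element stood in 508 of 32851 windows of the same length, or 1.55%, and TGACG, which the whole element contains, in 17.8%. The Dusp6 window held a CCAAT box 46 bases before the start, a motif found in 33.8% of windows, and no TGACG. Among the other genes with an entry, TGACG stood in the windows of Mapk8, Mapk9 and Cdk7, and a CCAAT box in those of Mapk9 and Mapk14. These are matches of letters, with no measurement of binding.

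The libraries held between 11351078 and 24349263 counted fragments with a median of 18338726, and 16723 genes passed the filter on low counts, all 9 kinase and phosphatase genes among them. The lowest count of any of the 9 in a library was 48, for Dusp1, and no exon base was shared with another gene except 11 bases of Dusp1, 0.332% of its exons, which overlap Ergic1 on the other strand. Differentiation was visible in Adipoq, from a normalised count of 1.81 ± 1.86 per 1000000 counted fragments (CPM, SD, n = 12) on day 0 to 2314 ± 737 on day 6, and in Pparg, Cebpa, Fabp4, Plin1 and Lpl, which all rose by day 2 and day 6. The brown fat marker Ucp1 had at most 5 counts in any library, and Cidea at most 27, so the day 6 cells carried adipocyte transcripts without the defining brown one. The pre-adipocyte markers Pdgfra, Ly6a and Cd34 fell, Ebf2 rose, and Dlk1 and Thy1 had at most 1 and 6 counts. Markers of macrophages summed to between 2.77 and 11.5 CPM, nearly all of it Cd68, with Ptprc and Adgre1 at no more than 1 count, those of endothelium to at most 0.995 CPM with Cdh5 and Kdr at no more than 1 count, and those of skeletal muscle to at most 0.340 CPM with Myod1 at 0 counts throughout. Rxra itself was counted in every library, between 1851 and 11489 times, without a difference between the genotypes (log2 fold change SA against WT between -0.07 and 0.03 over the 3 days). The label and the counts do not separate the re-expressed transcript from what remains of the endogenous one.

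Most of the 9 genes changed when differentiation was induced. Between day 0 and day 2, 6 of the 9 rose and 1 fell, in an experiment in which 35.8% of all genes tested rose and 37.5% fell, so that a change as such was no distinction. The median log2 fold change of the 9 was 0.57 beside -0.02 over all genes tested. From day 0 to day 6, 5 rose and 1 fell, against 32.9% and 35.4% of all genes, with a median of 0.34 beside -0.03. From day 2 to day 6, 1 rose and 4 fell, against 31.9% and 30.1% of all genes, with medians of -0.09 and 0.01. Scaled by library size alone, 33.6% in place of 48.9% of the genes called on day 2 rose, and 34.9% in place of 48.2% of those called on day 6 against day 0. All adjusted p-values are from edgeR's quasi-likelihood test with Benjamini-Hochberg adjustment over the 16723 genes, and a gene is said to rise or fall where that value is under 0.05.

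**Figure D1:**
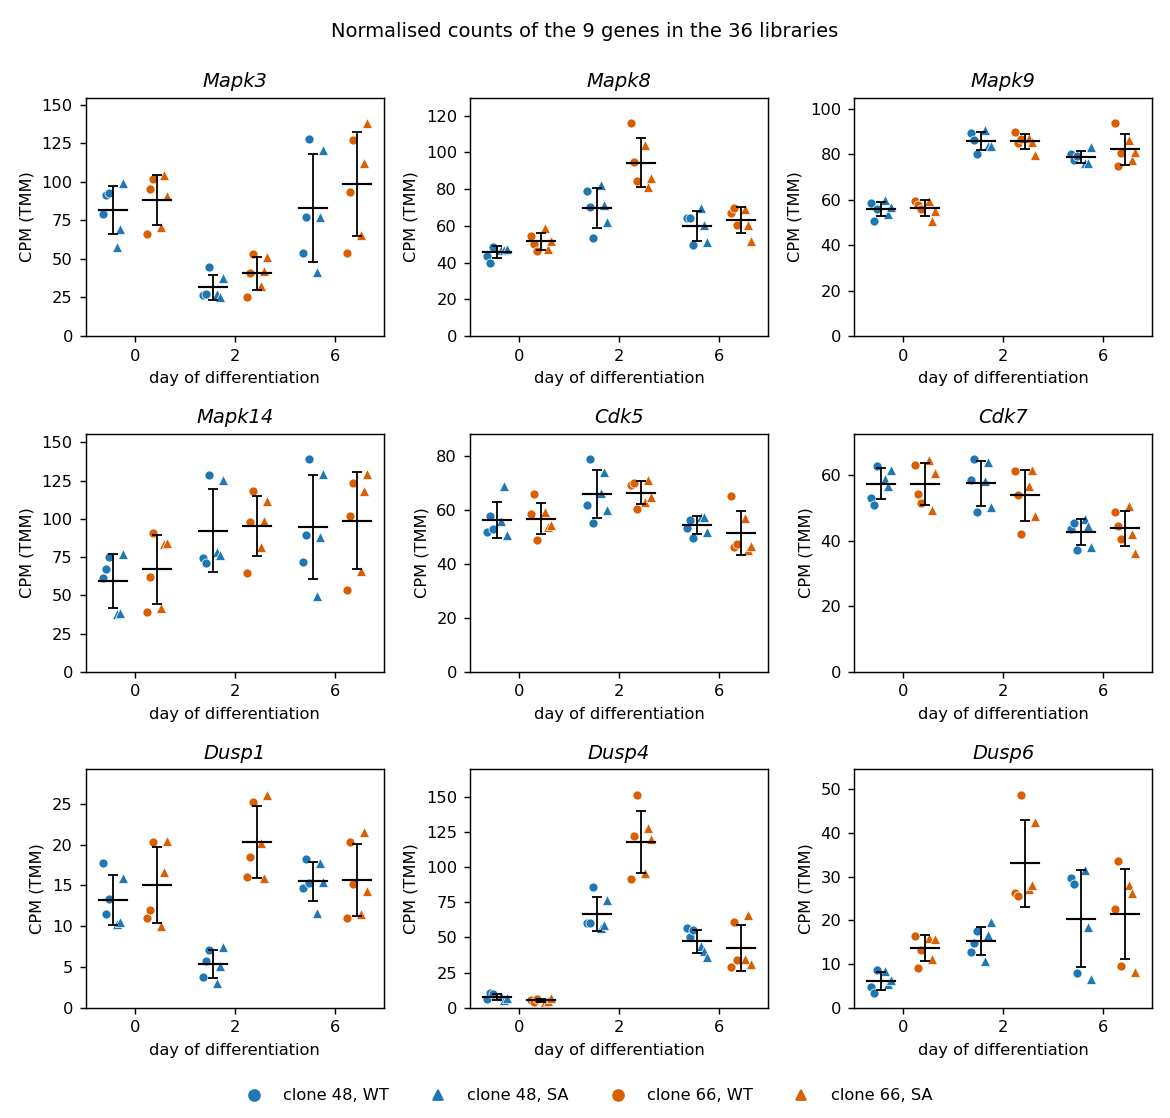
Normalised counts (CPM with TMM scaling, linear axes from 0) of the 9 genes on days 0, 2 and 6, one point per library; colours are clones, circles WT and triangles SA, and bars give the mean ± SD of the 6 libraries of a clone and day. Mapk3 dips on day 2, Dusp4 peaks there, and Dusp1 on day 2 lies between 3.04 and 7.50 CPM in clone 48 and between 15.9 and 26.1 CPM in clone 66.

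Mapk3, the ERK1 gene (chr7:126759601-126765819, plus strand, mm10), was the only one of the 9 called lower on day 2 in the main fit, the study's model with TMM scaling. With library size alone, Cdk7 was called lower too. Dusp1 was called lower in 4 of the 20 other fits, of which library size alone was one. The normalised counts of Mapk3 ran from 57.9 CPM over a median of 91.2 to 104 CPM in the 12 libraries of day 0. On day 2 they ran from 25.1 over 35.1 to 53.0 CPM. The highest library of day 2 was thus below the lowest of day 0. On the log2 scale it fell by 1.24 (SE 0.17, adjusted p = 7.35e-08), and from day 2 to day 6 it rose by 1.33 (SE 0.17, adjusted p = 2.94e-08). Day 6 spanned 41.7 to 138 CPM with a median of 85.5, overlapping both other days, and its difference from day 0 was 0.09 (SE 0.17, adjusted p = 0.649).

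The JNK genes rose together. Mapk9 (chr11:49846751-49886421, plus strand) had the tightest values of the 9, between 50.7 and 59.8 CPM with a median of 56.4 on day 0, between 79.7 and 91.0 with a median of 85.9 on day 2, and between 74.7 and 93.7 with a median of 79.7 on day 6. All libraries of days 2 and 6 were above all those of day 0. The rise was 0.61 on day 2 (SE 0.04, adjusted p = 2.46e-14) and 0.52 on day 6 (SE 0.04, adjusted p = 1.82e-12), both on the log2 scale. Mapk8 (chr14:33377898-33447158, minus strand) went from a median of 47.5 CPM, with a range of 39.8 to 58.9, to 81.7 CPM on day 2, with a range of 53.5 to 116, and then to 62.4 CPM on day 6, with a range of 49.3 to 69.9. The ranges of neighbouring days overlapped. Mapk8 rose by 0.75 on day 2 (SE 0.08, adjusted p = 3.99e-10) and fell by 0.40 from day 2 to day 6 (SE 0.08, adjusted p = 5.27e-05), leaving it 0.34 above day 0 (SE 0.08, adjusted p = 0.000329). That last difference was 0.16 and was not called with library size alone as the scaling (adjusted p = 0.0954). Counted per length of exon and scaled to 1000000 per library (TPM), Mapk9 was higher than Mapk8 in each of the 36 libraries, by 1.31 to 2.74 times.

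Mapk14, the p38α gene (chr17:28691329-28748406, plus strand), rose on both days but with a wide spread. Its range was 37.6 to 90.9 CPM with a median of 64.6 on day 0, 64.5 to 129 with a median of 89.9 on day 2, and 49.3 to 139 with a median of 95.6 on day 6. The days overlapped. The log2 fold change was 0.57 on day 2 (SE 0.18, adjusted p = 0.00517) and 0.62 on day 6 (SE 0.18, adjusted p = 0.00327). Scaled by library size alone, the rise on day 2 was 0.32 and no longer passed the test (adjusted p = 0.1). Without the 4 replicate 3 libraries of day 6, the rise on day 6 was 0.34 and was not called (adjusted p = 0.114).

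The cyclin-dependent kinases moved least. Cdk5 (chr5:24418241-24423530, minus strand) lay between 48.9 and 68.6 CPM on day 0, 55.0 and 78.7 on day 2, and 45.1 and 65.2 on day 6. It rose by 0.23 on day 2 (SE 0.07, adjusted p = 0.00406) and fell by 0.33 from there to day 6 (SE 0.07, adjusted p = 0.000128), a level not called different from day 0 (-0.10, adjusted p = 0.213). The rise depends on the scaling: with library size alone the day 2 difference was -0.04 (adjusted p = 0.664), a scaling that lowered the median of all genes from -0.02 to -0.27, and on day 6 Cdk5 was called lower than on day 0 (-0.29, adjusted p = 0.000944). Its activator gene Cdk5r1, which gives the p35 protein, fell in both steps, from 13.4 ± 2.47 CPM on day 0 to 5.18 ± 0.955 on day 2 and 2.15 ± 0.542 on day 6 (SD, n = 12 each). The log2 fold change of Cdk5r1 from day 0 was -1.37 on day 2 and -2.64 on day 6 (adjusted p = 5.66e-12 and 8.61e-19). Cdk7 (chr13:100702631-100730939, minus strand) had a median of 57.6 CPM on day 0, 57.5 on day 2 and 43.9 on day 6, with ranges of 49.3 to 64.5, 41.9 to 64.8 and 36.1 to 50.5 CPM. It was not called on day 2 (-0.04, SE 0.07, adjusted p = 0.606) and fell by 0.41 from day 0 to day 6 (SE 0.07, adjusted p = 7.43e-06). With library size alone, Cdk7 was called lower on day 2 as well (-0.30, adjusted p = 0.000563). Of its partners, Ccnh rose by 0.31 on day 2 and fell by 0.36 from day 0 to day 6, and Mnat1 differed by -0.22 on day 2 (adjusted p = 0.0659) and fell by 0.26 by day 6.

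Dusp4 (chr8:34807297-34819894, plus strand) showed the largest change of the 9 genes. It was low on day 0, between 3.87 and 10.3 CPM with a median of 6.07, and stood between 56.9 and 151 CPM with a median of 88.6 on day 2 and between 29.1 and 65.9 CPM with a median of 42.2 on day 6. No library of day 2 or day 6 overlapped day 0. The increase was 14.1-fold on day 2 (log2 fold change 3.82, SE 0.20, adjusted p = 4.26e-18) and 6.90-fold on day 6 (2.79, SE 0.19, adjusted p = 7.93e-15), with a fall of 1.03 on the log2 scale between the later days (SE 0.18, adjusted p = 7.28e-06). Dusp6 (chr10:99263231-99267489, plus strand) went from a median of 8.94 CPM, with a range of 3.45 to 16.3, to 22.6 CPM on day 2, with a range of 10.8 to 48.7, and 24.4 CPM on day 6, with a range of 6.46 to 33.6. It rose by 1.29 on day 2 (SE 0.26, adjusted p = 3.54e-05) and 1.21 on day 6 (SE 0.26, adjusted p = 0.00012), and the ranges overlapped. Dusp1 (chr17:26505590-26562128, minus strand) was not called over both clones (-0.30 on day 2, SE 0.24, adjusted p = 0.252, and 0.16 on day 6, SE 0.23, adjusted p = 0.564), and the clones went apart on day 2. It was called lower on day 2 with library size alone (-0.56, adjusted p = 0.0325) and without replicate 1 of clone 66 (-0.54, adjusted p = 0.0459). Per length, Dusp4 stood at 0.594 ± 0.255 times Dusp1 on day 0, 11.6 ± 5.49 times on day 2 and 3.51 ± 0.740 times on day 6 (SD over 12 libraries).

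Ordered by mean TPM on day 0, the genes ran Mapk3 111 ± 25.0, Cdk5 76.1 ± 6.03, Cdk7 45.2 ± 4.38, Mapk14 43.0 ± 15.1, Mapk9 24.3 ± 2.19, Dusp1 12.7 ± 4.18, Mapk8 12.5 ± 1.41, Dusp6 9.28 ± 4.38 and Dusp4 6.98 ± 2.28 (SD, n = 12). Neighbours from Cdk7 to Mapk14 and from Dusp1 to Dusp4 differed by less than the larger of their SDs. On day 2 Dusp4 led at 80.9 ± 29.8 TPM, within its SD of Cdk5 at 72.2 ± 3.02, and Mapk3 had dropped to 38.7 ± 12.8. On day 6 Mapk3 led again at 93.2 ± 37.6, followed by Cdk5 at 55.4 ± 4.91, Mapk14 at 51.2 ± 18.6 and Dusp4 at 37.6 ± 10.9, and Dusp1 was lowest at 10.8 ± 2.58. The exon length used is the union over all annotated transcripts, so genes with long alternative exons read lower on this scale.

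Other genes of the same pathways, from lists drawn up by role, moved in both directions. Above ERK, 8 of 14 genes of the growth factor relay rose on day 2 and 2 fell, among them the scaffold Ksr1 (1.36, SE 0.18) upwards and the kinase Braf (-0.70, SE 0.10) downwards. On day 6, 8 rose and 3 fell, led by Map2k1, which encodes the ERK kinase MEK1 (1.04, SE 0.06). Above JNK and p38, 8 of 17 rose and 5 fell on day 2. The stress sensor gene Gadd45a rose by 2.93 (SE 0.16) and Map3k5, which encodes ASK1, by 2.23 (SE 0.17), whereas Gadd45b fell by 2.65 (SE 0.12) and the JNK scaffold gene Mapk8ip1 by 2.89 (SE 0.12). On day 6, 6 of the 17 rose and 4 fell, with Gadd45a up by 4.62 (SE 0.17). Of the other MAP kinase genes 7 of 10 were tested, and 3 rose and 3 fell on each day. Mapk6, the gene of the atypical kinase ERK3, went from 57.2 ± 21.4 CPM on day 0 to 686 ± 180 on day 2 and 384 ± 111 on day 6 (SD, n = 12 each), with no overlap between day 0 and either later day. Mapk7, the ERK5 gene, fell by 0.84 on day 2 (SE 0.14), and Mapk11, the p38β gene, fell by 1.62 from day 0 to day 6 (SE 0.11).

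Of the other MAP kinase phosphatase genes, 11 of 13 were tested, and 3 rose and 8 fell on day 2, with a median log2 fold change of -0.49, and 4 rose and 6 fell on day 6, with a median of -0.23. Dusp22 rose by 1.44 on day 2 (SE 0.10) and was 2.84-fold higher on day 6 than on day 0, and Dusp3 and Dusp7 fell by 2.07 (SE 0.14) and 1.81 (SE 0.08). Among 16 genes induced by ERK or feeding back on it, 5 rose and 7 fell on day 2 and 4 rose and 6 fell on day 6. Spry4, an inhibitor of receptor signalling, rose by 4.87 on day 2 (SE 0.35) and Ier3 fell by 1.76 (SE 0.13). Of the 10 kinases switched on by MAP kinases, 3 rose and 3 fell on day 2 and 5 rose and 2 fell on day 6, with Mknk2 up by 2.24 on day 2 (SE 0.07) and Rps6ka4 down (-1.32, SE 0.12). Of 15 tested of 16 further proline-directed kinases and partners of Cdk5 and Cdk7, 7 rose and 3 fell on day 2, and 6 rose and 7 fell on day 6, Hipk2 rising by 1.23 (SE 0.19) and then 1.75 (SE 0.19) and Cdk4 falling by 0.81 (SE 0.09) and then 1.07 (SE 0.09). Over the same interval 10 of 11 genes of the glucocorticoid and cyclic AMP response rose on day 2, Fkbp5 by 4.13 (SE 0.12) and Tsc22d3 by 3.21 (SE 0.11), and 6 rose and 4 fell from day 0 to day 6. Of 5 proliferation markers, 4 fell and 1 rose on day 2 and 5 fell by day 6, Mki67 by 1.38 (SE 0.26) and then 0.87 (SE 0.26). The part of the hormone mixture and of proliferation in the changes of the 9 genes was not tested.

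**Figure D2:**
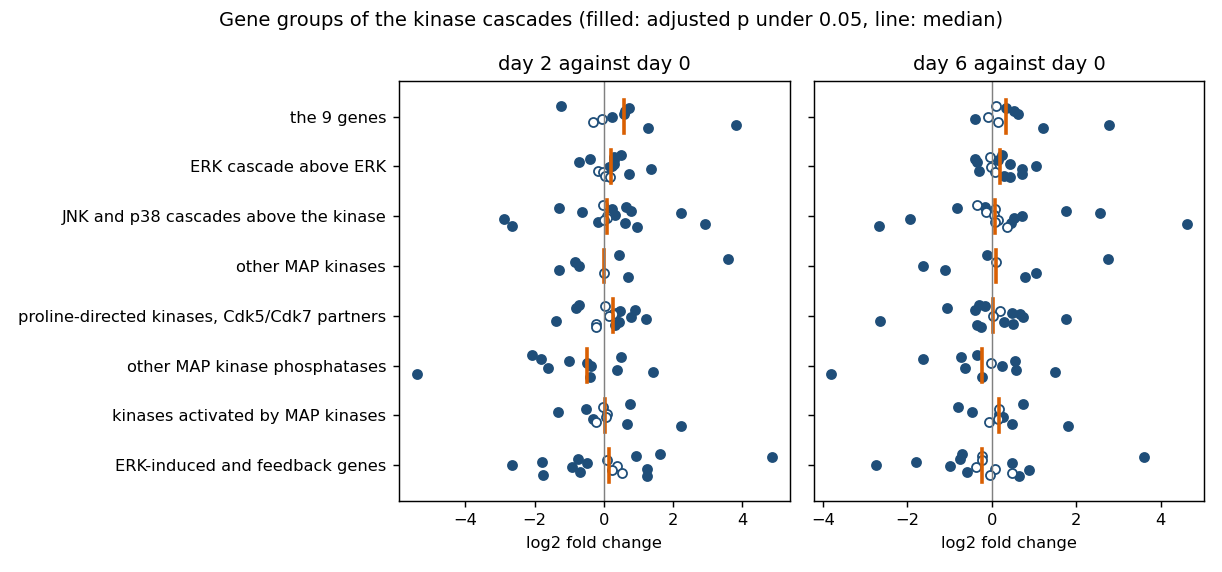
Log2 fold change of each tested gene (x axis) on day 2 and day 6 against day 0, by role; filled points passed the test, open points did not, and orange lines are medians. The 9 genes have medians of 0.57 and 0.34, and the other MAP kinase phosphatases -0.49 and -0.23.

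The comparison of RXRα SA with RXRα WT asks whether loss of the phosphorylation site alters expression of the kinases that could act on it or of the phosphatases that restrain them. None of the 9 genes was called on day 0, day 2 or day 6, and none showed a different time course between genotypes. No gene of the 16723 was called either in the main fit by edgeR, which is 0% in each of these comparisons, and DESeq2 called 0 genes. A replicate block with clone-specific groups called 1 gene on day 0 and 1 for genotype by time at day 6 against day 0, neither among the 9. In the main fit 139, 162 and 125 genes had an unadjusted p under 0.05 on days 0, 2 and 6, none of them among the 9. Evenly spread p-values would put a share of 0.05 under that limit, and each of these counts is a far smaller share. The test was thus conservative, and its high p-values do not show equal expression. For genotype by time, 144, 128 and 153 genes had an unadjusted p under 0.05 for day 2 against day 0, day 6 against day 0 and day 6 against day 2. The log2 fold changes of the 9 genes lay between -0.19 and 0.19 on every day, with an adjusted p of 1 for each.

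What the main fit, which leaves out the pairs of WT and SA libraries, could have missed differs from gene to gene. For Mapk9, with 56.4 ± 3.04 CPM in WT and 56.0 ± 3.50 in SA on day 0 (SD, n = 6), the 95% interval of the difference was -0.14 to 0.12 on day 0, -0.15 to 0.11 on day 2 and -0.15 to 0.11 on day 6. Cdk5 and Cdk7 were bounded by -0.22 and 0.28 over the 3 days, and Mapk8 by -0.28 and 0.32. Mapk3 and Mapk14 were less tightly bounded, at -0.59 to 0.53 and -0.66 to 0.56. The phosphatases had the widest intervals, reaching -0.74 and 0.70 for Dusp1, -0.74 and 0.42 for Dusp4 and -0.90 and 0.93 for Dusp6, so that a difference of nearly 2-fold in Dusp6 could not have been told from none. Dusp4 in SA was the furthest from WT on day 6, at 42.1 ± 12.5 against 47.7 ± 13.1 CPM (SD, n = 6). In clone 48, SA held 36.4 to 44.0 CPM and WT 50.2 to 57.0 CPM. In clone 66, SA held 31.0 to 65.9 CPM and WT 29.1 to 61.0 CPM. None of the 9 was called on day 6 within either clone. SA was higher in 2 of 6 pairs of the same clone and replicate number, both of clone 66. Compared within such pairs (a replicate block within each day, which the correlation of paired libraries allows), none of the 9 was called on any day, and 0, 1 and 0 of all genes were called on days 0, 2 and 6.

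**Figure D3:**
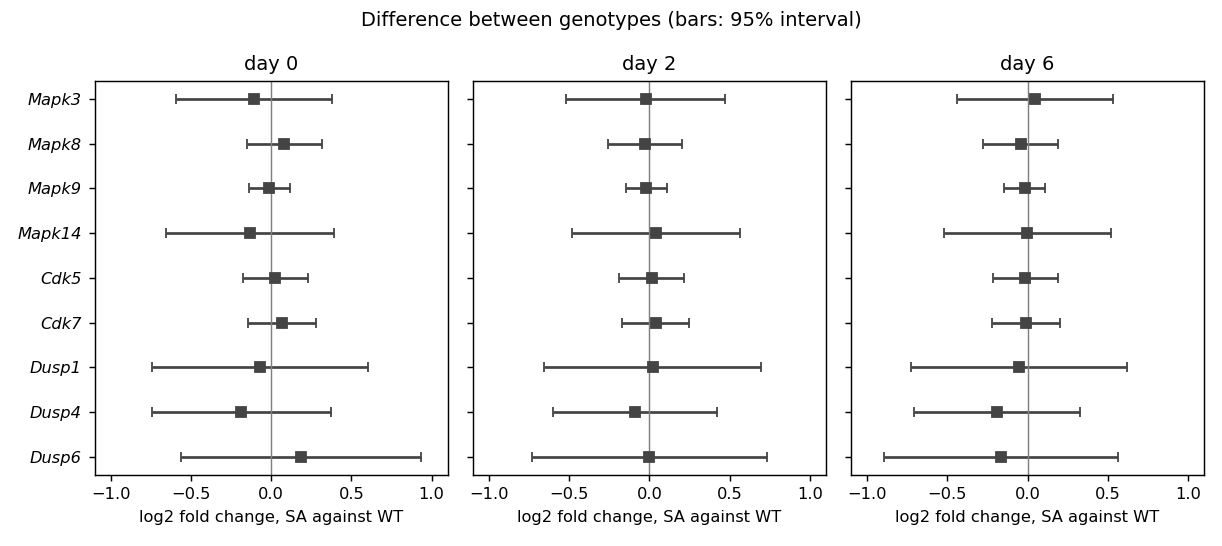
Log2 fold change of SA against WT (x axis) for the 9 genes on days 0, 2 and 6, with 95% intervals from the fit to all 36 libraries. All 27 intervals include 0, and those of Dusp6 are the widest.

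The clones, in contrast, differed in phosphatase genes on days 0 and 2, and in none of them on day 6. The kinase gene Mapk8 differed on day 2 as well. Such differences were common, at 23.7%, 30.0% and 26.2% of all genes tested on days 0, 2 and 6. On day 2, Dusp1 stood at 3.04 CPM at the lowest, 5.40 at the median and 7.50 at the highest in the 6 libraries of clone 48, and at 15.9, 19.4 and 26.1 CPM in the 6 of clone 66. The clones did not overlap, in WT or in SA cells. On day 0 the ranges were 10.3 to 17.7 CPM in clone 48 and 10.1 to 20.5 in clone 66, and on day 6 they were 11.6 to 18.3 and 10.9 to 21.6, so the clones overlapped before and after. Within clone 48, Dusp1 fell by 1.30 on day 2 (SE 0.24, adjusted p = 2.39e-05) and rose by 1.53 from day 2 to day 6 (SE 0.24, adjusted p = 3.8e-06). Within clone 66 the corresponding values were 0.43 (SE 0.23, adjusted p = 0.0986) and -0.38 (SE 0.23, adjusted p = 0.171). The difference between the clones' changes was 1.73 from day 0 to day 2 (SE 0.33, adjusted p = 0.000781) and -1.91 from day 2 to day 6 (SE 0.33, adjusted p = 0.000284). In the same fit with a coefficient for each clone, genotype and day, the mean change over both clones on day 2 was called as well (-0.43, adjusted p = 0.0193).

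Dusp4 rose in both clones on day 2 and rose further in clone 66. In clone 48 it went from 5.10, 7.69 and 10.3 CPM (lowest, median and highest of 6) to 56.9, 60.2 and 85.9 CPM, and in clone 66 from 3.87, 5.16 and 6.73 to 91.4, 121 and 151 CPM. The clones overlapped on day 0 and were apart on day 2. The increase was 8.59-fold in clone 48 and 22.7-fold in clone 66, and the clone-by-time difference was 1.40 (SE 0.28, adjusted p = 0.00148). From day 2 to day 6 it was -0.96 (SE 0.27, adjusted p = 0.0282), a call that was lost when replicate 1 or 2 of clone 48 or replicate 1 or 3 of clone 66 was left out (-0.69 to -0.93, adjusted p between 0.0634 and 0.223). For day 2 against day 0, 2 of the 9 genes, Dusp1 and Dusp4, differed between clones in their change, where 6.84% of all genes did. For day 6 against day 2 the same pair did, against 6.18%, and for day 6 against day 0 none of the 9 did, against 3.85%.

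Dusp6 was higher in clone 66 at the start and on day 2 and did not differ in its first rise. On day 0 its lowest, median and highest values were 3.45, 5.84 and 8.70 CPM in clone 48 and 9.18, 14.4 and 16.3 CPM in clone 66, without overlap. On day 2 they were 10.8, 15.7 and 19.6 against 25.6, 27.7 and 48.7 CPM, again without overlap, and on day 6 the clones overlapped. The difference between clones was 1.14 on day 0 (SE 0.37, adjusted p = 0.0231) and 1.11 on day 2 (SE 0.36, adjusted p = 0.0183), and each of these calls was lost in 3 of the 6 fits that left out a replicate of one clone. The rise on day 2 was 1.32 in clone 48 (SE 0.37) and 1.29 in clone 66 (SE 0.36), with a clone-by-time difference of -0.03 (SE 0.50, adjusted p = 0.998).

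Over all 9 genes, clone 66 differed from clone 48 in 2 genes on day 0, Dusp6 and Dusp4 (Dusp4 -0.57, SE 0.21, adjusted p = 0.0441), against 23.7% of all genes tested. On day 2 it differed in 4, Dusp1 (1.92, SE 0.24), Dusp6, Dusp4 (0.83, SE 0.19) and Mapk8 (0.43, SE 0.11, adjusted p = 0.00295), each higher in clone 66, against 30.0% of all genes. On day 6 none of the 9 differed, against 26.2%. Mapk9 and the cyclin-dependent kinases stood within 0.10 of each other in the clones on each day on the log2 scale. The call for Dusp4 on day 0 was lost in 5 of the 6 fits without one replicate of a clone and without the clone 48 SA replicate 1 library of day 0, which had the lowest total count of all libraries (-0.48, adjusted p = 0.121).

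**Figure D4:**
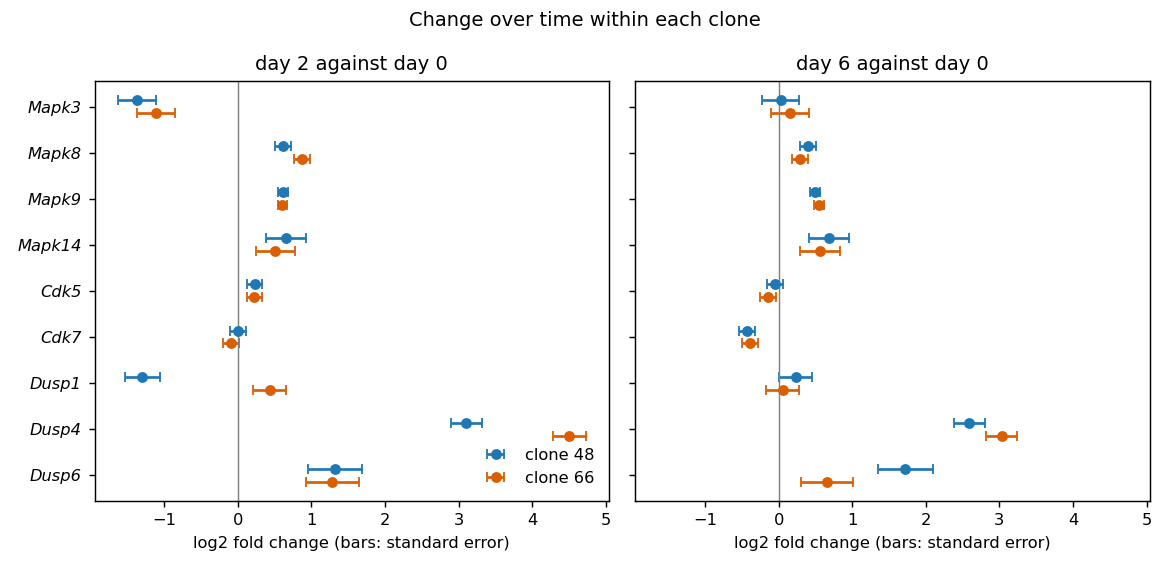
Log2 fold change against day 0 (x axis, same scale in both panels) within clone 48 and clone 66, with standard errors. The clones lie apart for Dusp1 and Dusp4 on day 2 (-1.30 against 0.43 and 3.10 against 4.50), and for Dusp6 on day 6 (1.72 against 0.66) by less than the test required.

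Within a day, the values of several of the 9 genes followed the replicate number. Mapk3 was lowest in replicate 1 in 11 of the 12 sets of clone, genotype and day, and highest in replicate 3 in 11 of 12. On day 6 the 4 libraries of replicate 1 averaged 53.8 ± 9.73 CPM, those of replicate 2 90.1 ± 16.6 and those of replicate 3 128 ± 7.13 (SD, n = 4), so the replicates of day 6 differed by as much as day 2 did from day 0. Mapk14 was lowest in replicate 1 in 10 sets and highest in replicate 3 in 12 of 12, with day 6 ranges of 49.3 to 72.0 CPM in replicate 1, 88.2 to 118 in replicate 2 and 123 to 139 in replicate 3. Mapk9, in turn, was highest in replicate 1 in 11 of 12 sets, and Cdk7 was lowest in replicate 3 in 9. Both clones and both genotypes shared these orders, and median total counts were 17799006, 17867895 and 19122716 for replicates 1, 2 and 3; the part of depth or of the culture in the order was not tested.

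Dusp6 dropped out of its range in replicate 3 of day 6 only. These 4 libraries, 2 from each clone, held 6.46 to 9.47 CPM, and the other 8 libraries of day 6 held 18.4 to 33.6 CPM, with means of 8.03 and 27.3. On day 2 replicate 3 held the highest Dusp6 value in each clone and genotype. In the same 4 libraries Mapk3 and Mapk14 were above, and Cdk7 below, all other day 6 libraries, and the other genes of the 9 overlapped. The share of all tested genes separated in this way was not counted, so whether such separation is particular to these genes was not tested. Of the 16 genes induced by ERK or feeding back on it, none was separated in this way, with Spry4 at 20.9 to 65.4 CPM against 13.8 to 127 CPM. Of the adipocyte markers Pparg was, at 357 to 468 against 511 to 658 CPM. Of the other MAP kinase phosphatase genes Ppm1d alone was, at 34.9 to 40.7 against 42.9 to 54.9 CPM. With these 4 libraries omitted, the rise of Dusp6 from day 0 to day 6 was still called, the difference of Dusp6 between days 2 and 6 turned from -0.09 to 0.32 (adjusted p = 0.166), Mapk3 on day 6 stood at -0.25 against day 0 (adjusted p = 0.174), and the rise of Mapk14 on day 6 was no longer called.

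**Figure D5:**
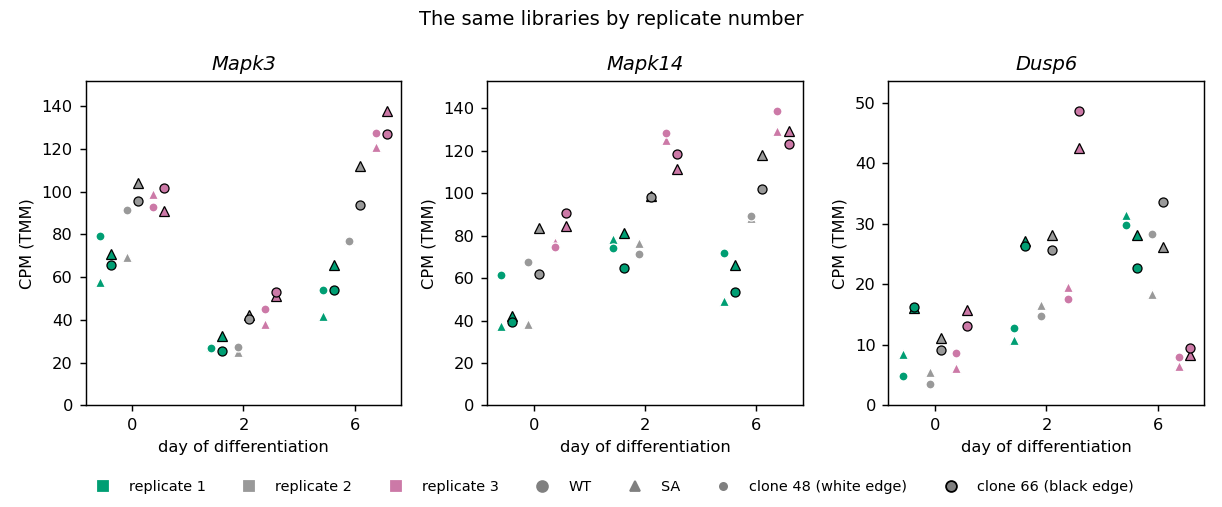
Normalised counts (CPM, linear axes from 0) of Mapk3, Mapk14 and Dusp6 by day, coloured by replicate number, with circles for WT, triangles for SA and a black edge for clone 66. Replicate 3 is highest for Mapk14 throughout, and on day 6 the 4 replicate 3 libraries of Dusp6 lie between 6.46 and 9.47 CPM, below all others of that day.

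The likeness of expression patterns was taken over the 12 means of clone, genotype and day, which share libraries and scaling, among 9381 genes of sufficient level. The pair nearest to Mapk3 were Phf21a (Pearson r = 0.992) and Sspn (0.991), and those nearest to Mapk9 were Slc1a5 (0.996) and Aifm2 (0.994). Mapk8 was nearest to Cab39 (0.989) and Tiparp (0.980), Mapk14 to Trim44 (0.986), Cdk5 to Rexo4 (0.988) and Ndufa4 (0.988), and Cdk7 to Cep85 (0.990) and Rhoj (0.983). Dusp4 was nearest to Zhx1 (0.992) and Cebpb (0.990), Dusp6 to Celf2 (0.974) and 1700086O06Rik (0.969), and Dusp1 to Lrp1 (0.928) and Rnd2 (0.897), so Dusp1 had the least close neighbours of the 9. Among the 9 genes themselves Mapk9 and Dusp4 were closest (r = 0.963), followed by Mapk8 with Dusp6 (0.889), and Mapk3 and Cdk5 were the most opposed (-0.930). These values describe 12 means and carry no test.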

How the data were processed

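Total RNA libraries (TruSeq Stranded) were sequenced on a NextSeq 500. Per the labels and the file headers, the authors aligned reads with STAR 2.7.0d to mm10 and counted fragments per gene over GENCODE M21 exons with featureCounts 1.6.2 without a strand setting, so the deposited values are raw counts. Samples were grouped by the clone, genotype and day in their titles. The model of the study's methods (genotype by day, plus clone) was fitted with edgeR 4.0.16 (quasi-likelihood, TMM, filterByExpr) to all 36 libraries, and a coefficient for each clone, genotype and day gave the clone contrasts and those within clones. A standard error is the log2 fold change divided by the root of its F, and intervals use 29 residual degrees of freedom. On simulated counts (16723 genes), 49 of 100 genes changed 2-fold were called for SA against WT on day 2 and 80 of 100 for day 2 against day 0. For clone by time at day 2 against day 0, 38 of 100 were called. Of 100 genes changed 1.5-fold, 21, 57 and 6 were called in these comparisons. The simulated libraries were drawn independently. Real libraries shared deviations between WT and SA and, unevenly, across days, so any of these values may not hold for the real data. Levels are CPM with TMM scaling or TPM from exon lengths. The phosphatase genes had the lowest counts of the 9, and the part of depth in their spread was not tested. Libraries of WT and SA with the same clone, day and replicate number deviated together (correlation 0.176 to 0.930, 18 of 18 pairs above 0.1), so the numbers pair them. No replicate pair of libraries agreed within sampling noise. The named genes are the 9, Rxra, Cdk5r1, Ccnh, Mnat1, all marker genes and the 2 most alike per gene. From each list up to 2 genes per direction and time contrast are named, those with the largest called change at an average log2 CPM of 2 or more. The values of Spry4, Pparg and Ppm1d in replicate 3 were chosen after they were seen. Some results that these rules would name are not reported here. The 9 genes and all lists were chosen with earlier results of these data known. Upstream windows are from RefSeq, 6 of 9 genes having an entry. Alternatives were 19 planned fits, 2 added after the data were seen, and levels without TMM scaling.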

Additional observations from a re-analysis of the deposited data

Results flagged for a closer look

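The time course of Dusp1 differed between the clones, with a clone-by-time difference of 1.73 on the log2 scale for day 2 against day 0 (clone 66 minus clone 48, edgeR adjusted p = 0.000781) and of -1.91 for day 6 against day 2 (adjusted p = 0.000284). That of Dusp4 differed by 1.40 (adjusted p = 0.00148) and -0.96 (adjusted p = 0.0282) in the same contrasts.

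In 54 groups of 6 libraries, 2 held a library far from the others, where chance gives about 1 in 20. Mapk9 in WT cells of day 6 had its highest value, 93.7 CPM, in replicate 1 of clone 66, and Dusp4 in SA cells of day 6 had its highest, 65.9 CPM, in replicate 2 of clone 66.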

How the results depend on the processing

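Over 19 planned fits and 2 added after the data were seen, of which 20 gave the time contrasts, 21 those of genotype and 17 those of clone, 7 or 8 of the 9 genes were called for day 2 against day 0, 5 or 6 for day 6 against day 0, 5 to 7 for day 6 against day 2, and 0 for each genotype contrast. With library size alone the counts for days 2 and 6 against day 0 were still 7 and 6, but not of the same genes: Cdk5 and Mapk14 were lost on day 2 and Cdk7 (-0.30) and Dusp1 (-0.56) were called, and Mapk8 (0.16) was lost on day 6 and Cdk5 (-0.29) was called. For clone by time, 2 were called for day 2 against day 0 in all 17 fits. Leaving out one replicate number of one clone gave 0 to 1 for clone by time at day 6 against day 0, 1 to 3 at day 6 against day 2, 0 to 2 for the clone difference on day 0 and 0 to 1 on day 6. With the libraries of the compared days alone, 1 gene differed between clones on day 0, as without the clone 48 SA replicate 1 library of day 0, and with the replicate 3 libraries of day 6 omitted, 1 gene was called for clone by time at day 6 against day 2.

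Among small differences that turned sign, none of them called in either fit unless stated, library size alone gave -0.037 for Cdk5 on day 2 (called at 0.23 with TMM scaling) and, on day 6 against day 0, -0.11 for Mapk3 and -0.029 for Dusp1. Without the filter on low counts Cdk7 on day 2 was 0.00079, and with one replicate number of one clone left out it was between -0.11 and 0.0073. In the same fits Mapk3 on day 6 was between -0.0051 and 0.17, Dusp6 for day 6 against day 2 between -0.44 and 0.27, and Dusp4 between clones on day 6 between -0.55, called without clone 66 replicate 2, and 0.040. With the replicate 3 libraries of day 6 omitted, Mapk3 on day 6 was -0.25, Mapk14 and Dusp6 for day 6 against day 2 were -0.24 and 0.32, and Dusp4 between clones on day 6 was 0.0026. The cause of these shifts was not tested. Without TMM scaling, 9 of 54 mean levels moved by more than 1 SD, all of them of Mapk8, Mapk9, Cdk5 or Cdk7.

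Across days, libraries with the same clone, genotype and replicate number correlated between -0.325 and 0.882. The mean was 0.374 for days 0 and 2, 0.316 for days 0 and 6 and 0.477 for days 2 and 6. Of 12 pairs each, 9, 8 and 10 were above 0.1. The sharing was thus positive on average but uneven, and the main fit did not use the replicate number across days. A replicate block over the days called 7, 6 and 6 of the 9 genes for days 2 and 6 against day 0 and day 6 against day 2, and with clone-specific groups 8, 6 and 7, adding Dusp1 on day 2 (-0.43, adjusted p = 0.0041) and, for day 6 against day 2, Dusp1 (0.58) and Mapk9 (-0.09). The latter fit called 2248, 1369 and 2082 of all genes for clone by time, against 1144, 644 and 1033, and leaving out one replicate number gave as few as 574, 316 and 537. Dusp1, Dusp4 and Dusp6 had the smallest lowest counts of the 9, at 48, 81 and 57, and the part of depth in their spread was not tested.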
